A study of Mus musculus with 20 samples.

Results

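The members are 47 mouse genes of the chaperone and unfolded protein response systems, taken by symbol from a fixed list and found in the deposited tables through their Entrez identifiers. All 47 were listed in each of the 3 tables, among 17104 genes listed in at least one of them. They were kept in 5 modules, of 16 cytosolic heat shock genes, 3 mitochondrial chaperones, 17 endoplasmic reticulum (ER) chaperone and degradation genes, 4 genes for Xbp1 and the stress sensors, and 7 genes of the Atf4 arm. RNA-seq was done on MycCaP-Bo cells, a bone-homing subline of a Myc-driven mouse prostate cancer cell line that carries iRFP and luciferase, sorted as CD45- iRFP+ cells from bone metastases of FVB/N mice injected at an age of 4 to 6 weeks. The 4 groups had 5 libraries each, and every library pooled the tumor cells of 3 mice, so p-values measure the spread between such pools. Naive tumors received vehicle, and Resist tumors received enzalutamide, an antiandrogen, at 30 mg/kg daily for 18 days. Resist-Mac tumors received the same enzalutamide course with clodronate liposomes, which deplete macrophages, at 1 mg per mouse in the last 4 days. Naive tumors with clodronate liposomes are called Naive-Mac here. Naive and Resist libraries were batch 1 and shared a table, Resist-Mac was batch 2 and Naive-Mac batch 3, so depletion, batch and table cannot be told apart.

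Chaperones bind unfolded or partly folded proteins and help them reach their folded state. In the cytosol the transcription factor Hsf1 raises Hsp70, Hsp90 and small heat shock protein genes when unfolded protein builds up. In the ER the same problem is sensed by Ern1 (IRE1), Eif2ak3 (PERK) and Atf6. Ern1 splices Xbp1 mRNA, Atf6 is cut to release a transcription factor, and both act on ER chaperone and degradation genes. Eif2ak3 slows translation and allows Atf4 to be made, which acts on amino acid synthesis genes and on Ddit3 (CHOP). Splicing, cleavage and phosphorylation are not read by gene-level values, so the activity of these sensors was not measured here.

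Promoter windows, which run from 250 bases before a RefSeq start site to 50 bases after it on GRCm38.p6, were given for 39 of the 47 members. The letters of 3 elements were searched on both strands, with the second end of the first one also searched alone. The ER stress element, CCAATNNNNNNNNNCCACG, was in windows of 7 of 15 ER members (Calr, Canx, Creld2, Dnajc3, Hsp90b1, Hspa5 and Pdia6), of 0.137% of the 27025 genes with a window and in 0.119% of all 32851 windows. It was in none of the 24 other members with a window. Its end CCACG alone was in 14 of the 15 ER members, in 35.5% of genes and in 32.8% of all windows. Of the other members with a window, CCACG was in 8 of 12 cytosolic, 2 of 2 mitochondrial, 1 of 3 sensor and 5 of 7 Atf4 arm genes. The 30 bases around the whole element are printed for Hspa5 and Hsp90b1, whose levels are compared with each other below, and for Calr and Dnajc3, in the orientation in which the element reads as spelled, with its fixed letters in capitals. They lay at chr2:34772020-34772049 for Hspa5 on the plus strand, at chr10:86705632-86705661 on the minus strand and chr10:86705527-86705556 on the plus strand for the 2 copies of Hsp90b1, at chr8:84847069-84847098 for Calr on the plus strand and at chr14:118937822-118937851 for Dnajc3 on the plus strand.
Hspa5: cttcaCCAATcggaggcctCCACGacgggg
Hsp90b1 first copy: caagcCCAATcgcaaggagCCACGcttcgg
Hsp90b1 second copy: aactcaCCAATcgtgcctcaCCACGcactc
Calr: tatgggCCAATgagggtcgaCCACGcgttg
Dnajc3: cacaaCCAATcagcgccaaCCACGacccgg

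A heat shock element of 3 units, GAANNTTCNNGAA, was in 0.662% of genes and in 0.603% of windows. Among members it was in those of Hsph1 and of the mitochondrial pair Hspd1 and Hspe1. These 2 genes are transcribed away from each other on chromosome 1, with an Hspd1 start 216 bases before the Hspe1 start and a second one 95 bases after it. The window of the first Hspd1 start and that of Hspe1 held the same 2 overlapping matches, 1 on each strand. The stretch is shown because both genes were lower in Resist, at chr1:55088056-55088085 on the plus strand, with the match nearer to the Hspe1 start in capitals.
Hspd1 and Hspe1: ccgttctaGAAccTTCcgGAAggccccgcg
The element TGATGNAA, which Atf4 binds with C/EBP partners, was in 4.51% of genes and in 3.97% of windows. Among members it was in the windows of Asns, Chac1 and Trib3 of the Atf4 arm, and of Herpud1. That of Chac1, which was lower in Resist, is shown at chr2:119351038-119351067 on the minus strand.
Chac1: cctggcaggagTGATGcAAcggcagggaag
None of the 3 elements was in the windows of Hspb1, Hsp90aa1 had no window, and a match to letters is no evidence of binding.

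Values are FPKM, read fragments scaled for the length of the transcript and the size of the library. The tables held no counts, which leaves library depth unknown and counting errors out of reach. The labelled cell type was checked first. Krt8, Foxa1 and Hoxb13 were at a mean of at least 1 FPKM in every group, Cdh1 and Krt18 had means of at most 0.106 FPKM in every group, and Epcam was listed only in the Naive-Mac table. The summed level of 8 neutrophil markers was 170 to 1226 FPKM in Naive, 59.9 to 580 in Resist, 391 to 8479 in Resist-Mac and 58.6 to 6027 in Naive-Mac libraries. That of 9 macrophage markers was 21.8 to 100.48 in Naive, 11.8 to 55.8 in Resist, 38.2 to 799 in Resist-Mac and 5.99 to 519 in Naive-Mac, and 4 erythroid markers summed to 53.9 to 106.5 in Naive, 105.9 to 199 in Resist, 130 to 310 in Resist-Mac and 213 to 950 in Naive-Mac. The macrophage sum was mostly Lyz2, with means of 38.1, 21.1, 304 and 223 FPKM in Naive, Resist, Resist-Mac and Naive-Mac. In the same order Mertk was at 5.73, 6.88, 2.87 and 1.13 FPKM. Cd68 and Csf1r were highest in Resist-Mac, at 2.37 and 1.13 FPKM. Adgre1, C1qa, C1qb, C1qc and Mrc1 had means of at most 0.434 FPKM in every group. In each group the library with the highest macrophage sum also had the highest neutrophil sum. The markers of osteoblasts and stroma summed to 10.6 to 16.1 FPKM in Naive, 11.3 to 32.7 in Resist, 5.46 to 14.2 in Resist-Mac and 1.61 to 3.23 in Naive-Mac. Among the genes called by limma in Resist vs. Naive were Hoxb13 and the hemoglobin gene Hba-a1, both higher in Resist. The 6 listed markers of B cells and plasma cells, which are rich in ER chaperones, summed to at most 2.21 FPKM in Naive and Resist and 8.51 in the other groups. The part of other cells in the results below was not tested, and in bulk RNA fewer cells of a type and less RNA per cell cannot be told apart.

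Members spanned a wide range of levels, and their order was led by cytosolic genes. Hspb1, a small heat shock protein, was the highest member in every group, at 2881 ± 231 FPKM (SD, n = 5) in Naive. The constitutive cytosolic Hsp90, Hsp90ab1, followed at 1723 ± 41.1 FPKM. P4hb, a protein disulfide isomerase, was the highest ER member at 918 FPKM, Hspe1 the highest mitochondrial one at 388 FPKM, Atf4 the highest of its arm at 125 FPKM and Xbp1 the highest of its module at 45.1 FPKM, as means in Naive. Eif2ak3, Atf6 and Ern1 were at 7.91, 10.3 and 17.3 FPKM, and Trib3 at 1.90 FPKM. Hspb8 was listed at 0 in all Naive and Naive-Mac libraries, reached at most 0.09 FPKM elsewhere, and was the 1 member not tested for being under a mean of 1 FPKM.

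The comparison of Resist with Naive asks which of these genes differ once tumors grow under enzalutamide. Most did not differ by much. With limma, called genes had a Benjamini-Hochberg adjusted p under 0.05 over all 10119 genes tested and a fold change over 1.5. Of the 46 members tested, 2 were called, both lower in Resist (Hspb1 and Chac1), and 0 were called higher, by limma, beside 10 (21.7%) at an unadjusted p under 0.05, against 34.5% of all genes. Over all genes 6.35% were called, 5.25% as higher and 1.11% as lower. On adjusted p alone 8 members passed, against 18.9% of all genes, 7 of them lower in Resist (Hspb1, Hsp90aa1, Cct2, Hspa9, Hspd1, Hspe1 and Chac1) and 1 higher (Dnajb9). Over all 10119 genes the lean was the other way, with 648 lower and 1267 higher in Resist on adjusted p alone. The groups did not overlap for 3 members (Hspb1, Hsp90aa1 and Cct2), against 12.8% of all genes. For 38 of the 46 members the 95% interval of the difference lay within 1.5-fold either way. The median log2 difference, Resist minus Naive, was -0.05 over the members and 0.03 over all genes. By module it was -0.08 for cytosolic, -0.28 for mitochondrial, -0.01 for ER, 0.10 for sensor and -0.05 for Atf4 arm members.

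**Figure D1:**
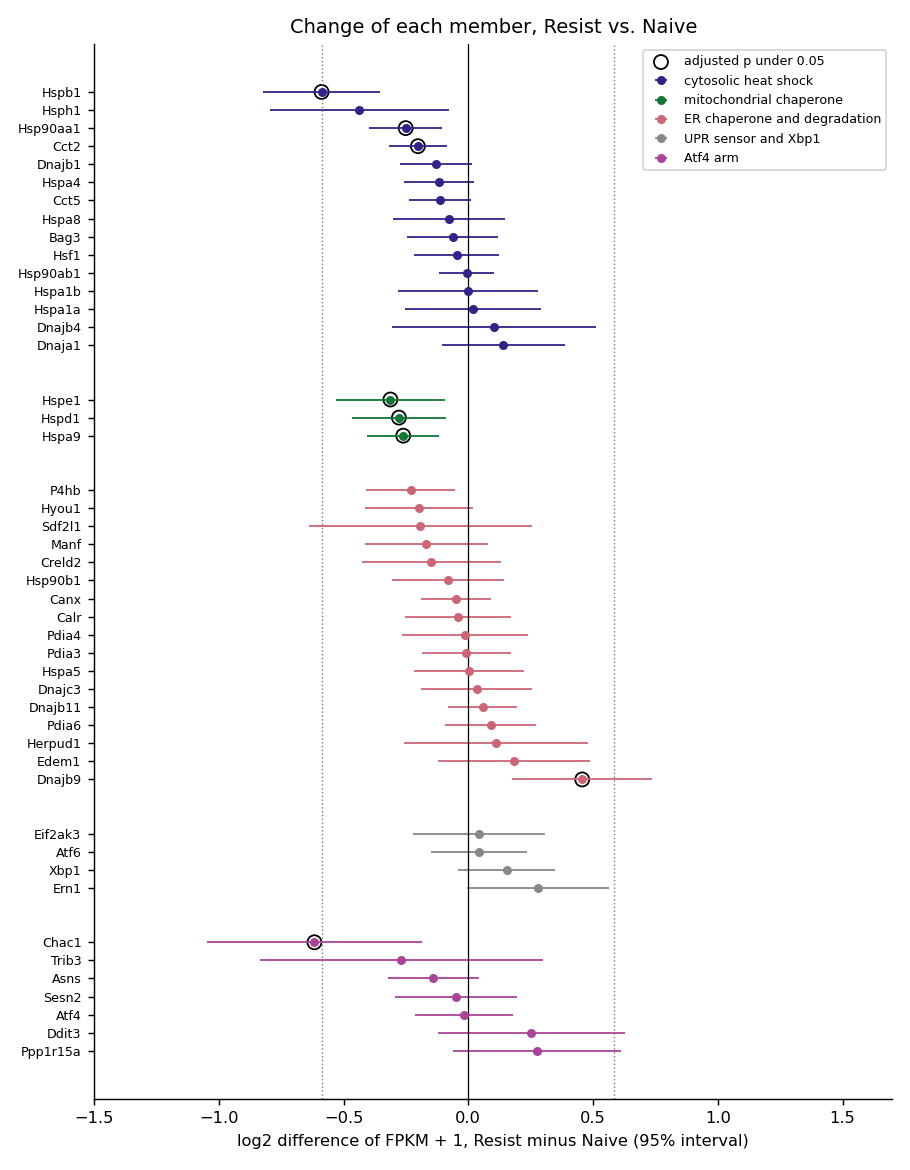
Difference in log2(FPKM + 1), Resist minus Naive, for the 46 members tested (dots, coloured by module) with 95% intervals from limma; rings mark an adjusted p under 0.05 and dotted lines 1.5-fold. The 3 mitochondrial members sit left of 0, Hspb1 and Chac1 lie at or past the left dotted line, and most intervals of ER members cross 0.

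Among the cytosolic genes, Hspb1 was lower in Resist. It binds unfolding proteins without using ATP and holds them for refolding. In Naive libraries it was at 2673, 2711, 3104, 2758 and 3158 FPKM, and in Resist libraries at 2098, 2200, 1896, 1441 and 2022. Every Resist library was below every Naive library, and the fourth Resist library was the lowest. The log2 difference was -0.59 ± 0.11 (SE) with an adjusted p of 0.00369 by limma, and the exact two-sided permutation p was 0.00794, the smallest that 5 against 5 can give. The difference stands just past the 1.5-fold limit (0.58 on the log2 scale). Without Resist replicate 4 the log2 difference was -0.49, without Naive replicate 3 it was -0.56 and without Naive replicate 5 -0.55, and Hspb1 was then no longer called by fold, at adjusted p of 0.00216, 0.0116 and 0.0112 by limma. Its transcript, of 930 bases, is short and has 1 close pseudogene. Its log2 difference was -0.54 after values were corrected for length and GC, an alternative added once the data had been seen, and -0.50 with quantile normalization, and it was called in neither.

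Hsp90aa1, the stress-inducible cytosolic Hsp90, was lower in Resist, and its constitutive partner Hsp90ab1 did not pass. Hsp90aa1 was at 1001, 852, 995, 868 and 894 FPKM in Naive and at 735, 812, 747, 745 and 830 in Resist libraries. The ranges were separate, by a narrow gap between 830 and 852 FPKM. Its log2 difference was -0.25 ± 0.07 (adjusted p = 0.023, limma). Hsp90ab1 was at 1757, 1731, 1765, 1671 and 1691 FPKM in Naive and at 1745, 1721, 1702, 1649 and 1755 in Resist libraries, with a log2 difference of -0.01 and a 95% interval of -0.12 to 0.10. Within a library, the ratio of Hsp90aa1 to Hsp90ab1 was 0.535 ± 0.0322 in Naive and 0.451 ± 0.0221 in Resist (SD, n = 5), with no overlap between the groups (0.492 to 0.569 against 0.421 to 0.473). The exact two-sided permutation p was 0.00794, or 0.0238 adjusted over the 3 ratios computed, and the difference was between -0.27 and -0.22 on the log2 scale without any one library. A ratio within a library shows unequal change and not which gene changed. Reads of Hsp90aa1 and Hsp90ab1 can be shared with 5 and 2 close pseudogenes, and with quantile normalization the difference of Hsp90aa1 itself was -0.07 (adjusted p = 0.493, limma).

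Cct2, a subunit of the TRiC chaperonin that folds actin and tubulin, was at 333, 331, 317, 331 and 316 FPKM in Naive and at 297, 280, 280, 262 and 298 in Resist libraries. It was lower in all Resist libraries, by a log2 difference of -0.20 ± 0.05 (adjusted p = 0.022, limma). It passed in 14 of 20 alternatives, at an adjusted p of up to 0.0933 by limma. Cct5, of the same chaperonin, differed by -0.11 with overlapping groups (adjusted p = 0.183, limma). Hsph1, an Hsp110 that recharges Hsp70 with nucleotide, was at 58.2, 47.5, 66.9, 59.8 and 56.9 FPKM in Naive and at 42.5, 53.3, 36.9, 28.1 and 56.9 in Resist libraries. The groups overlapped, and the log2 difference of -0.44 ± 0.17 did not pass (adjusted p = 0.0836, limma).

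The Hsp70 genes and their partners did not pass the test. The inducible pair Hspa1a and Hspa1b were at 142 ± 27.1 and 400.5 ± 81.5 FPKM in Naive and at 142 ± 13.9 and 394 ± 35.5 in Resist (SD, n = 5). Their transcripts are 99.2% identical over 2201 aligned bases, so reads can be split between them. Their sum over Hspa8, the constitutive Hsp70, was 0.726 ± 0.129 in Naive and 0.770 ± 0.137 in Resist (exact permutation p = 0.563). Hind legs were ground and digested with enzymes before sorting, and the part of this step in these levels was not tested. The 9 immediate early genes listed, such as Fos and Jun, summed to 3600 to 5026 FPKM in Naive and 3618 to 5396 in Resist libraries. Of these genes 1 was called higher (Fosb, log2 difference 0.76, adjusted p = 0.0336, limma) and 0 lower, against 5.25% and 1.11% of all genes. The other 6 cytosolic members tested (Hspa8, Hspa4, Dnaja1, Dnajb1, Dnajb4 and Bag3) had log2 differences from -0.13 to 0.14. Hsf1, the regulator, was at 24.9, 24.6, 26.4, 24.8 and 22.6 FPKM in Naive and at 20.8, 22.1, 24.2, 25.4 and 27.3 in Resist, with a log2 difference of -0.05 and an interval of -0.22 to 0.12. Of the 32 other cytosolic chaperone genes listed, 30 were tested, with a median log2 difference of -0.08. By limma 1 was called higher and 0 lower in Resist, against 5.25% and 1.11% of all genes. An unadjusted p under 0.05 was reached by 15, against 34.5% of all genes. On adjusted p alone, which 18.9% of all genes passed, 1 was higher and 5 were lower in Resist (Tcp1, Cct6a, Stip1, Ptges3 and Pfdn1). Of the TRiC subunits in this list, Tcp1 (log2 difference -0.27, adjusted p = 0.00826, limma) and Cct6a (-0.36, adjusted p = 0.0234, limma) passed. The subunits Cct3, Cct4, Cct7 and Cct8 did not pass, at log2 differences of -0.17 to -0.09 (adjusted p of at least 0.0699, limma). The gene called higher was Hspb6, another small heat shock protein, at 8.62 ± 1.38 FPKM in Naive and 18.9 ± 2.98 in Resist (log2 difference 1.05 ± 0.12, adjusted p = 0.00025, limma).

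The 3 mitochondrial chaperones were lower in Resist on adjusted p and under the 1.5-fold limit. Hspd1 (Hsp60) and its lid Hspe1 (Hsp10) form the folding chamber of the matrix, and Hspa9 is the matrix Hsp70 that also pulls in imported proteins. Hspd1 was at 371, 381, 410, 344 and 359 FPKM in Naive and at 310, 284, 301, 271 and 379 in Resist libraries. Hspe1 was at 419.6, 376, 396, 361 and 385 FPKM in Naive and at 306, 281, 285, 287 and 417 in Resist libraries. Hspa9 was at 231, 244, 246, 217 and 236 FPKM in Naive and at 197, 186, 185, 188 and 225 in Resist libraries. For each gene the fifth Resist library was the highest of its group and lay within the Naive range, and the other 4 Resist libraries lay below all Naive libraries. The log2 differences were -0.28 ± 0.09 for Hspd1, -0.31 ± 0.10 for Hspe1 and -0.26 ± 0.07 for Hspa9, with adjusted p of 0.0437, 0.0491 and 0.0181 by limma. These adjusted p were under 0.05 in 18 of 20 alternatives for Hspa9 and in only 5 of 20 for Hspd1 and for Hspe1, where they reached 0.0985 and 0.207 by limma. Without Resist replicate 5 the differences were -0.35, -0.42 and -0.31, with adjusted p of 0.00286, 0.000569 and 0.00215 by limma. Hspd1 has 4 close pseudogenes and the Hspe1 transcript is 964 bases long. With the length and GC correction Hspd1 and Hspe1 no longer passed (-0.24 and -0.17, adjusted p = 0.055 and 0.173, limma). Of 7 other mitochondrial chaperones and proteases, with a median of -0.12, 0 were called by limma. On adjusted p alone 0 were higher and 2 lower in Resist, where 18.9% of all genes passed. Both had no overlap between the groups, against 12.8% of all genes, and an unadjusted p under 0.05, against 34.5%. They were Lonp1, the matrix protease, at a log2 difference of -0.38 (adjusted p = 0.00764, limma), and Grpel1, which exchanges the nucleotide of Hspa9, at -0.36 (adjusted p = 0.0122, limma).

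**Figure D2:**
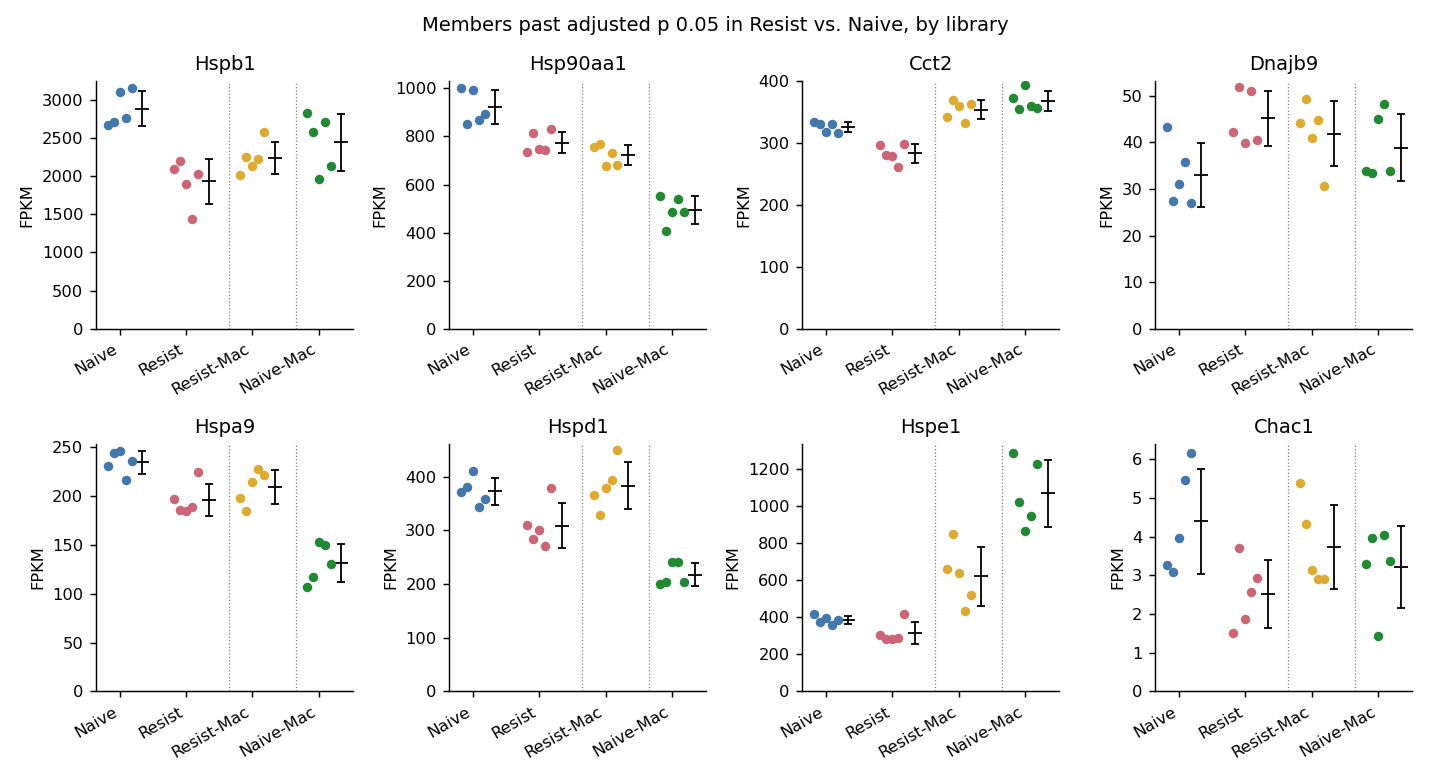
FPKM by library (points, left to right replicates 1 to 5) with mean and SD (bars) for the 8 members with an adjusted p under 0.05 in Resist vs. Naive, in all 4 groups; dotted lines separate the deposited tables. For Hspb1, Hsp90aa1 and Cct2 all Resist points lie below all Naive points, while the fifth Resist library lies among the Naive points for Hspa9, Hspd1 and Hspe1.

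The ER chaperones were at nearly the same mean level in Naive and Resist, with a spread shared between genes. Hspa5 (BiP), the Hsp70 of the ER that also holds the sensors inactive, was at 711, 607, 734, 755 and 913 FPKM in Naive and at 733, 642, 724, 776 and 832 in Resist. The groups lay within the same range, with a log2 difference of 0.00 and a 95% interval of -0.22 to 0.22. P4hb was at 881, 829, 878, 901.1 and 1102 FPKM in Naive and at 799, 735, 738, 748 and 879 in Resist libraries. Its log2 difference of -0.23 ± 0.08 did not pass (adjusted p = 0.0706, limma). Dnajb9 (ERdj4), a co-chaperone of Hspa5 that is a target of spliced Xbp1, was at 43.4, 27.4, 31.1, 35.9 and 26.9 FPKM in Naive and at 42.1, 51.9, 40.0, 51.1 and 40.6 in Resist libraries. It was the only ER member to pass adjusted p, at a log2 difference of 0.46 ± 0.13 (adjusted p = 0.029, limma). It passed in 14 of 20 alternatives, at an adjusted p of up to 0.0711 by limma. The groups overlapped through the first Naive library, and the difference was under the 1.5-fold limit. The other 14 ER members had log2 differences from -0.20 to 0.18, and 0 passed by limma at an adjusted or an unadjusted p under 0.05. The 7 ER members named above as having the ER stress element lay between -0.15 and 0.09. Of 26 other genes of ER folding, translocation and degradation, 25 were tested, with a median of 0.02. Of these 0 were called higher and 1 lower by limma, against 5.25% and 1.11% of all genes. An unadjusted p under 0.05 was reached by 10, against 34.5% of all genes. On adjusted p alone 3 were higher (Dnajc10, Pdia5 and Mbtps1, at log2 differences of 0.19 to 0.27) and 1 lower, where 18.9% of all genes passed. The gene called lower was Ero1a, the oxidase that recharges protein disulfide isomerases, at 268 ± 29.8 FPKM in Naive and 155 ± 40.6 in Resist (log2 difference -0.81 ± 0.14, adjusted p = 0.00281, limma).

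Between libraries the ER members moved together. After subtracting group means over the 10 Naive and Resist libraries, the median correlation between pairs of ER members was 0.71, and 120 of 136 pairs were positive. It was 0.87 for the 3 mitochondrial pairs, 0.30 for cytosolic, 0.36 for sensor and 0.26 for Atf4 arm pairs, and 0.03 over all pairs of genes tested. All of these pairs share the same libraries, so they are given as descriptions. Hspa5 and Hsp90b1 (Grp94, the Hsp90 of the ER) had r = 0.89 and rho = 0.88 over the 10 libraries (permutation p = 0.00148, or 0.00888 adjusted over 6 pairs, and 0.00145 for rho). Within groups r was 0.92, and without the 2 libraries farthest from the median of Hspa5 it was 0.97. Of the other 5 pairs tested, Hspa1a with Hspa5 had r = 0.66 and rho = 0.49 (permutation p = 0.0381 and 0.155, adjusted 0.114 and 0.279). Within groups its r was 0.66 (permutation p = 0.0834). Without the 2 libraries farthest from the median of Hspa1a it was 0.46 (permutation p = 0.235). The other 4, Atf4 with Asns, Hspa1a with Dnajb1, Asns with Hspa5 and Hspa1a with the immediate early gene Fos, had r from -0.40 to 0.41 and rho from -0.52 to 0.44, with permutation p of at least 0.236 for r and 0.133 for rho.

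A few libraries were often the highest or lowest of their group. The fifth Naive library was the highest of its group for 16 of 17 ER members, and the fifth Resist library for 11 of 17. The second Naive and the second Resist library were each the lowest of their group for 12 of 17. ER members in the fifth Naive library were at a median of 1.25 times the median of the other 4, from 0.803 for Dnajb9 to 1.69 for Sdf2l1. In that library Hsp90b1 was at 563 FPKM against 416 to 452 in the others, and Edem1, which hands misfolded glycoproteins to degradation, at 43.4 against 28.3 to 32.6. In the same library neutrophil markers summed to 540 FPKM (170 to 1226 in its group) and macrophage markers to 48.95 (21.8 to 100.48). Its plasma cell and B cell markers summed to 0.64 FPKM, and its immediate early genes had the lowest sum of the group, 3600 FPKM. What set this library apart was not tested. Without it the median log2 difference of the ER members was 0.04, and without Resist replicate 5 it was -0.08. The 7 ER members with an ER stress element had a median pairwise correlation within groups of 0.81 (lowest 0.33, 21 pairs), and the 8 with a window and no such element had 0.40 (lowest -0.68, 28 pairs). This split was made after the values were known and was not tested.

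**Figure D3:**
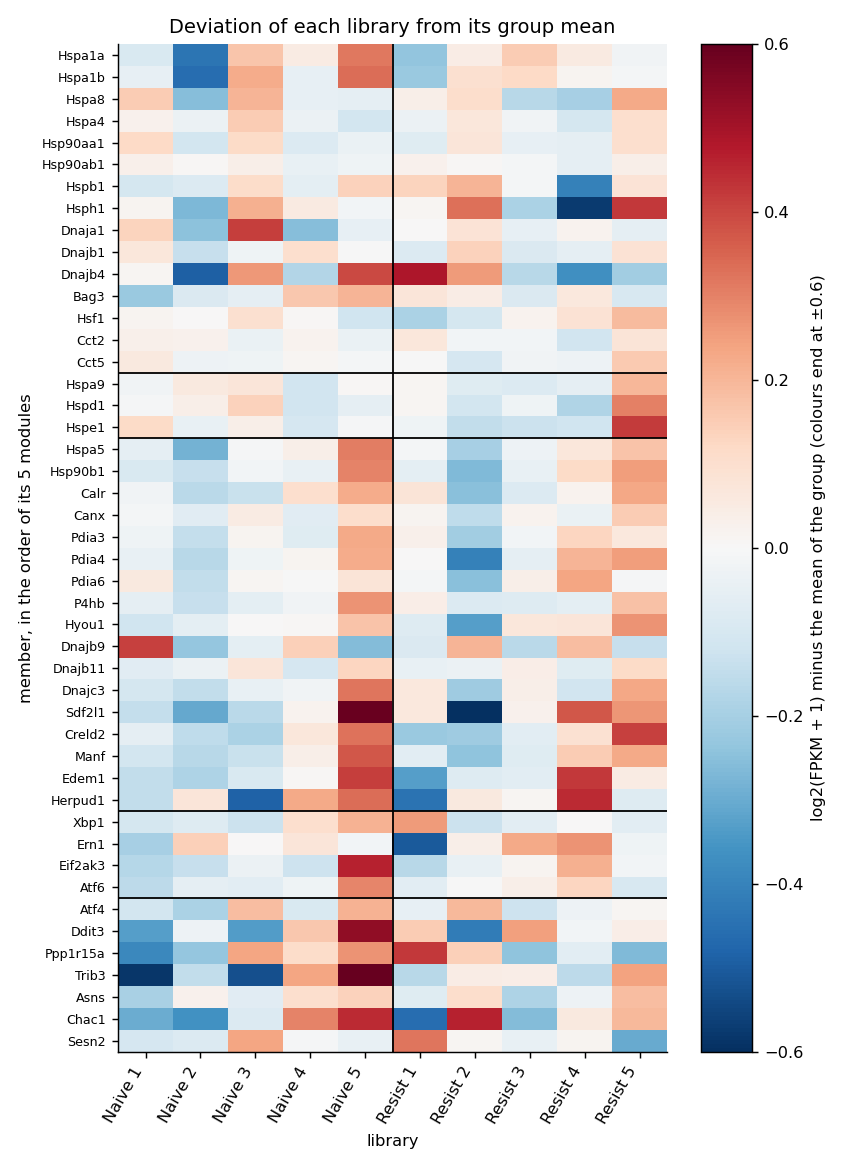
Deviation of log2(FPKM + 1) from the group mean for each member tested (rows, in the order of the 5 modules, separated by lines) in each Naive and Resist library (columns). The fifth Naive column is red and the second Naive and second Resist columns are blue across most ER rows, and the fifth Resist column is red in the 3 mitochondrial rows.

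**Figure D4:**
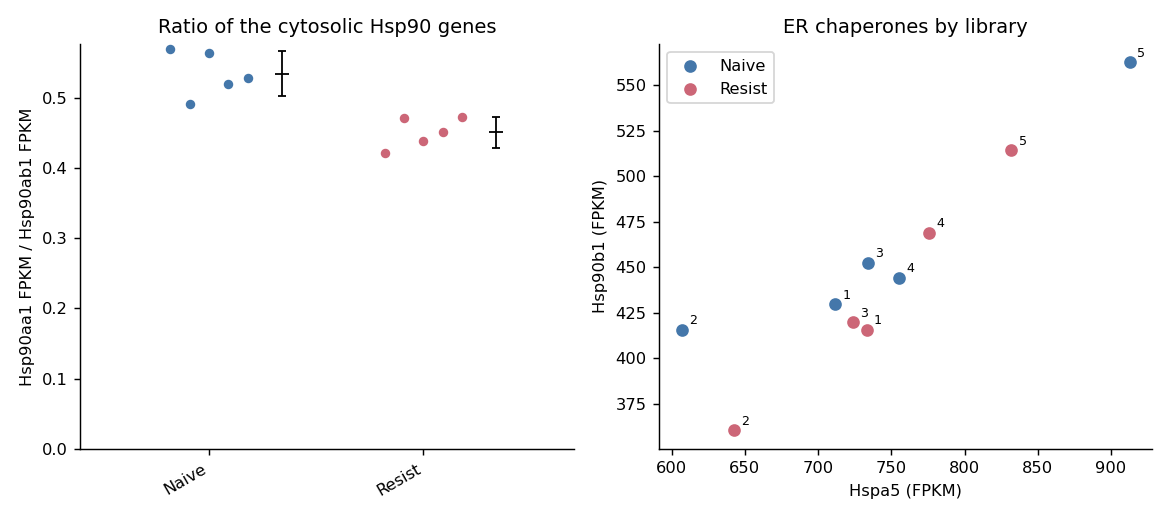
Left, the ratio of Hsp90aa1 to Hsp90ab1 FPKM by library with mean and SD for Naive and Resist (n = 5 each); right, Hsp90b1 against Hspa5 in FPKM, 1 point per library with its replicate number. The ratios of the groups do not overlap, and Hspa5 and Hsp90b1 are lowest in the libraries numbered 2 and highest in those numbered 5.

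The stress sensors and Xbp1 did not pass in Resist vs. Naive, and 0 of the 4 had an unadjusted p under 0.05 by limma. Ern1 was at 14.8, 19.1, 17.2, 18.1 and 17.0 FPKM in Naive and at 14.6, 21.7, 24.9, 25.6 and 20.7 in Resist libraries. Of the Resist libraries 4 were above all Naive libraries and the first was below them, with a log2 difference of 0.28 ± 0.13 (adjusted p = 0.152, limma). Xbp1 was at 41.7, 42.6, 41.0, 48.3 and 52.2 FPKM in Naive and at 60.1, 45.7, 47.9, 50.2 and 47.9 in Resist, a log2 difference of 0.15 with overlapping groups (adjusted p = 0.242, limma). Eif2ak3 was at 6.81, 6.99, 7.58, 7.06 and 11.1 FPKM in Naive and at 7.06, 7.75, 8.14, 9.47 and 7.93 in Resist. Atf6 was at 9.06, 9.81, 9.75, 10.03 and 12.8 FPKM in Naive and at 10.1, 10.5, 10.85, 11.6 and 9.81 in Resist. For both genes the fifth Naive library was the highest of the 10, and the log2 differences of 0.04 had intervals of -0.22 to 0.31 for Eif2ak3 and -0.15 to 0.24 for Atf6.

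In the Atf4 arm, Chac1 was lower in Resist and the factor itself was not. Chac1, an enzyme that breaks down glutathione, is a target of Atf4 and Ddit3. It was at 3.28, 3.09, 3.98, 5.46 and 6.17 FPKM in Naive and at 1.5, 3.72, 1.87, 2.58 and 2.93 in Resist libraries. The groups overlapped through the second Resist library, and the log2 difference was -0.62 ± 0.20 (adjusted p = 0.0478, limma). This call was lost in 11 of the 19 alternatives that tested Chac1. Over the 19 the log2 difference was between -0.79 and -0.50 and the adjusted p between 0.0245 and 0.108 by limma. Without any one of Resist replicates 1, 3 and 4 or Naive replicates 1, 3, 4 and 5 Chac1 was not called. Atf4 was at 115, 109, 142, 117 and 144 FPKM in Naive and at 119, 141, 113, 120.3 and 124 in Resist, with a log2 difference of -0.02 and an interval of -0.21 to 0.18. Its mRNA does not show how much of it is translated.

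The other 5 genes of the arm did not pass, and 0 of them had an unadjusted p under 0.05 by limma. Asns, which makes asparagine, was at 60.1, 70.2, 65.8, 74.0 and 75.9 FPKM in Naive and at 59.4, 67.3, 54.8, 61.3 and 71.1 in Resist (log2 difference -0.14, adjusted p = 0.261, limma). Ppp1r15a (Gadd34), which reverses the translational block set by Eif2ak3, was at 21.4, 23.9, 33.5, 30.6 and 34.2 FPKM in Naive and at 46.4, 38.1, 29.0, 32.9 and 28.5 in Resist. The groups overlapped, at a log2 difference of 0.27 ± 0.16 (adjusted p = 0.231, limma). Ddit3, a transcription factor tied to cell death under long stress, was at 4.56, 5.85, 4.55, 6.83 and 9.12 FPKM in Naive and at 8.27, 5.23, 8.89, 7.23 and 7.56 in Resist (log2 difference 0.25, adjusted p = 0.318, limma). Trib3 and Sesn2 had log2 differences of -0.27 and -0.05, and Trib3 was at 4.37 FPKM in the fifth Naive library against 0.77 to 2.12 in the other 4. Of 28 other genes placed in the Atf4 arm, mostly for amino acid synthesis, transport and tRNA charging, 25 were tested, with a median of -0.08. Of these 0 were called in either direction by limma, against 6.35% of all genes. An unadjusted p under 0.05 was reached by 10, against 34.5% of all genes, and adjusted p alone was passed by 18.9% of all genes. On adjusted p alone 1 was higher (Eif2ak4, a kinase that senses uncharged tRNA, at a log2 difference of 0.41) and 6 were lower in Resist (Atf3, Cebpb, Gars, Shmt2, Ppp1r15b and Eif2s1, at -0.54 to -0.23). Of these the transcription factor Atf3 had the lowest, and its groups did not overlap (adjusted p = 0.0469, limma).

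The depletion comparisons set groups from separate tables side by side, and the tables differ in more than the members. Gapdh, a glycolytic gene often used as a reference, was at a mean of 705 FPKM in Naive and 498 in Resist, and at 5769 in Resist-Mac and 7484 in Naive-Mac. Differences also followed transcript length, with Spearman's rho over genes of 0.64 for Resist over Resist-Mac and 0.71 for Naive over Naive-Mac, against 0.16 for Resist over Naive. Genes are not independent replicates, so these are descriptions. The values that follow share libraries with the comparison above, and depletion, batch and table cannot be told apart in them.

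Resist vs. Resist-Mac asks which genes depend on macrophages under enzalutamide. Of the 46 members tested, 8 were called by limma, against 21.7% of all genes, and 17 passed adjusted p alone, against 43.7%. Those higher in Resist were 5, against 9.71% of genes, namely the inducible Hsp70 Hspa1b, the Hsp40 Dnajb4, Ern1, Ddit3 and Ppp1r15a. Those lower were 3, against 12% of genes, namely Hspa8, Hspe1 and Sdf2l1, a co-chaperone of the ER Hsp40s. Groups did not overlap for 12 members, against 29.7% of genes. Ern1 was at 6.89, 7.73, 9.79, 13.7 and 12.4 FPKM in Resist-Mac libraries, below the 14.6 to 25.6 of Resist, with a log2 difference of 1.03 ± 0.19 (adjusted p = 0.0012, limma). With the length and GC correction the difference of Ern1 was 0.52 and it was no longer called, nor were Hspe1 (-0.29) and Sdf2l1 (-0.57). Hspe1 and Ddit3 were not called with quantile normalization (-0.40 and 0.48). Ddit3 was also lost without any one of Resist replicates 1 and 3 or Resist-Mac replicates 1, 2 and 5, and Hspa1b without any one of Resist replicates 2 and 3 or Resist-Mac replicates 3 and 5, at log2 differences from 0.52 to 0.56 for Ddit3 and from 0.57 to 0.58 for Hspa1b. Ppp1r15a was at 20.1, 16.2, 19.9, 26.4 and 19.0 FPKM in Resist-Mac, below all Resist libraries. Hspa8 was at 1584 to 2120 FPKM in Resist-Mac and 612 to 823 in Resist, and it has 10 close pseudogenes. The ER chaperones Hspa5 and Hsp90b1 differed by -0.06 and 0.22 on the log2 scale and Atf4 by 0.02, and none of them passed (adjusted p = 0.624, 0.19 and 0.891, limma).

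Naive vs. Naive-Mac asks the same without enzalutamide, and most genes were called in it. Of the 46 members, 29 were called by limma, close to the 59.7% of all genes, and 39 passed adjusted p alone, against 78.1%. Those higher in Naive were 24, against 37.5% of genes, and those lower were 5, against 22.1% of genes. The 24 held 9 cytosolic, 2 mitochondrial, 6 ER, 3 sensor and 4 Atf4 arm members. Groups did not overlap for 31 members, against 66% of genes. With median-ratio scaling, which moved the median of all genes from 0.23 to -0.05, 14 members were higher and 8 lower. Of all 9815 genes tested with that scaling, 2862 were called higher and 3073 lower. The largest differences of members were in Ppp1r15a, Ern1 and Hspa1a. Ppp1r15a was at 3.44 to 5.11 FPKM in Naive-Mac and at 21.4 to 34.2 in Naive, and Ern1 at 0.79 to 3.35 and at 14.8 to 19.1. Hspa1a was at 24.8 to 39.5 FPKM in Naive-Mac and at 102 to 174 in Naive. Their log2 differences were 2.53 ± 0.14, 2.45 ± 0.20 and 2.23 ± 0.15. The 9 immediate early genes listed, among them Fos, Jun and Egr1, summed to 1857 to 2531 FPKM in Naive-Mac and 3600 to 5026 in Naive, and their part was not tested. The 5 members lower in Naive were Hspa8, Cct5, Hspe1, Sdf2l1 and Manf, a secreted ER protein. In this comparison Hspe1 turned to 0.14 and Sdf2l1 was -0.20 with the length and GC correction, and Ddit3 turned to -0.016 and Hspa8 was -0.18 with quantile normalization, and none of the 4 was then called. Hspe1 (-0.46), Cct5 (0.078) and Manf (-0.52) were also not called with quantile normalization, nor was Cct5 with the length and GC correction. Ddit3 was also not called with median-ratio scaling (0.39) or without Naive replicate 5 (0.52) or Naive-Mac replicate 3 (0.55). Of the other pathway genes, those called higher and lower in Naive were 2 and 10 of 30 cytosolic, 2 and 2 of 7 mitochondrial, 14 and 4 of 25 ER and 9 and 3 of 25 Atf4 arm genes. For Resist over Resist-Mac these counts were 1 and 6, 0 and 3, 2 and 1, and 3 and 3.

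**Figure D5:**
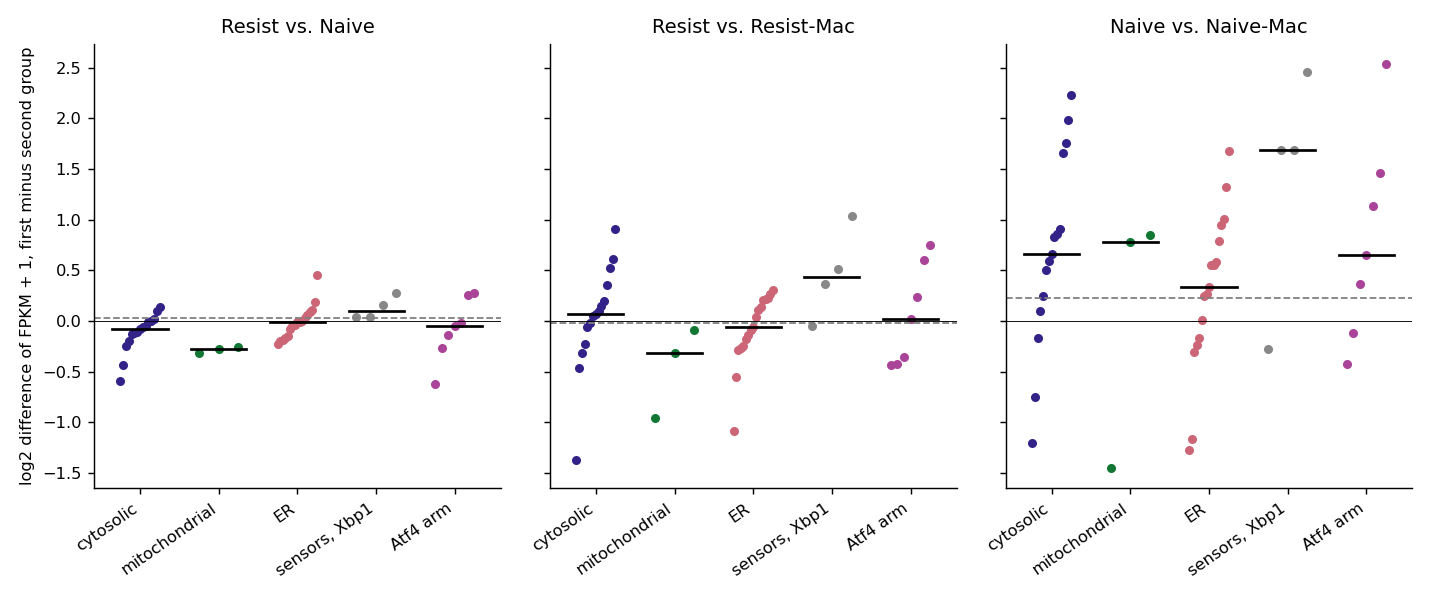
Difference in log2(FPKM + 1), first minus second group, for each member tested (dots) by module in the 3 comparisons, with the median of each module (black bar) and of all genes tested (dashed line). Members lie within 0.62 of 0 in Resist vs. Naive and spread to 2.53 in Naive vs. Naive-Mac, where the all-gene median is 0.23.

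The ratio of Hspa1a and Hspa1b to Hspa8 was 0.196 in Resist-Mac and 0.0749 in Naive-Mac, and that of Hspa5 to Hspa8 was 0.426 and 0.294, against 1.00 in Naive and 1.06 in Resist. The ratio of Hsp90aa1 to Hsp90ab1 was 0.444 (0.419 to 0.489) in Resist-Mac and 0.457 (0.380 to 0.589) in Naive-Mac, where the range spanned those of Naive and Resist. These ratios are means of values from separate tables and were not tested across them.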

How the data were processed

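RNA of sorted tumor cells was enriched with oligo dT and sequenced on a BGISEQ-500 with paired reads of 150 bases. The authors deposited FPKM per gene and library. The deposited table of Naive and Resist libraries holds log2 values, log2(FPKM + 1), from which FPKM were recovered. The submitters' processing notes name Bowtie2 and mm9, and the quantification tool is not given in the sources used here. The authors' BGI_novel genes (8.45% of FPKM in that table) were removed. Groups were compared pairwise on log2(FPKM + 1) by limma (version 3.58.1, R 4.3.3), the prior variance following mean expression, and genes averaging below 1 FPKM were left out. Fold changes on this scale understate those of low genes. For single genes and ratios, two-sided exact permutation tests were used, and for correlations 100000 permutations (scipy 1.17.1). The limma fit was tested on simulated data. Close pseudogenes, processed or not, were found with minimap2 2.31. They had at least 200 bases, an identity of 0.9 or more, and 0.8 or more of the pseudogene covered. Promoter sequences are from RefSeq on GRCm38.p6, and no coordinates of the files were used.

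The members, modules and lists were chosen with earlier results of these data known. Values in every library were given for called members, the 2 highest and the 2 most different members of each module, and the regulators Hsf1, Xbp1, Ern1, Eif2ak3, Atf6, Atf4 and Ddit3. Of other pathway genes, up to 3 called in Resist vs. Naive were named per list. Hsp90aa1, Cct2, Cct5, Hspa9, Trib3, Edem1, Gapdh and the other pathway genes past adjusted p alone were named after their values were seen. So were Fosb and the other TRiC subunits. Alternatives were another pseudocount (0.1), other filters, median-ratio scaling, quantile normalization, no trend, a replicate block, a joint fit of all groups, adjusted p alone and leaving out each library. A spline correction for length and GC (4 degrees of freedom) was added once the data had been seen. Some marker genes are not reported here. Scripts ran in Python 3.11.15 with pandas 2.3.3, numpy 2.4.6 and, for figures, matplotlib 3.10.9.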

Additional observations from a re-analysis of the deposited data

Results flagged for a closer look

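In 12 of 186 member and group combinations with 5 libraries, 1 library stood apart from the other 4 by Dixon's criterion, where chance at 1 in 20 would give 9.3. Of these, 6 were the fifth Naive library, which was high in Hsp90b1 (562.53 FPKM), P4hb (1102.5), Dnajc3 (53.05), Edem1 (43.42), Eif2ak3 (11.09) and Atf6 (12.76). The fifth Resist library was high in Hspe1 (416.96 FPKM) and the third Naive library in Sesn2 (7.1 FPKM). The first Naive-Mac library was low in Hyou1 (42.14 FPKM) and Ern1 (0.79 FPKM), the third Naive-Mac library was low in Chac1 (1.43 FPKM), and the fifth Resist-Mac library was the only one of its group with Hspb8 above 0 (0.05 FPKM).

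For 4 members all libraries of Resist-Mac lay on one side of the Resist mean and all libraries of Naive-Mac on the opposite side of the Naive mean. On the log2 scale, Resist-Mac minus Resist and Naive-Mac minus Naive were 0.22 and -0.25 for Hspb1, 0.31 and -0.78 for Hspd1, 0.088 and -0.34 for Pdia3, and 0.44 and -0.36 for Chac1. The difference between the 2 changes was not tested, and each sets separate tables side by side.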

How the results depend on the processing

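In Resist vs. Naive the 643 genes called became 392 over genes averaging 5 FPKM or more and 1915 with adjusted p alone, and 82.6% of calls were higher, against 70.1% with quantile normalization. The 2 members called lower became 1 with a mean of at least 5 FPKM, no filter, quantile normalization, no trend or all groups in a single fit, 0 with the length and GC correction and 7 (with 1 higher) with adjusted p alone; without each library in turn they were 0 to 2. Over all genes those called lower were 112, became 648 with adjusted p alone and lay between 89 and 163 in the other settings. Hspb1 had an adjusted p under 0.05 by limma in 20 of 20 alternatives, Hspa9 in 18, Cct2 and Dnajb9 in 14, Hsp90aa1 in 12, Hspd1 and Hspe1 in 5, and Chac1 in 8 of 19.

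In Resist vs. Resist-Mac quantile normalization gave 12 members higher, beside 999 of 10047 genes, and 55.0% of calls were higher, against 44.8%. Its medians were 0.42 for cytosolic, 0.23 for mitochondrial and 0.43 for ER members. Adjusted p alone gave 4388 genes (1919 higher and 2469 lower), 9 members higher and 8 lower. The length and GC correction gave 898 of 10027 genes (36.4% higher, with 571 lower), 1 member lower and a mitochondrial median of -0.11. Members higher were 3 without Resist replicate 3, beside 880 of 10043 genes, and at most 5 without any other library.

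In Naive vs. Naive-Mac 62.9% of calls were higher, against 48.2% with median-ratio scaling, 48.3% with quantile normalization and 75.6% with the length and GC correction. Median-ratio scaling gave 14 members higher and 8 lower, beside 2862 genes higher and 3073 lower of 9815. Medians were then 0.34, 0.46, 0.020 and 0.39 for cytosolic, mitochondrial, ER and Atf4 arm members. Quantile normalization gave 2 members lower, beside 2845 of 9888 genes. It gave medians of 1.03, 1.54, 0.86, 1.06 and -0.016 for cytosolic, mitochondrial, ER, sensor and Atf4 arm members, and reversed Cct5 (0.078) and Ddit3 (-0.016). The length and GC correction gave 2 members lower, beside 1016 of 9655 genes. It gave medians of 1.13, 0.58, 0.80 and 1.09 for mitochondrial, ER, sensor and Atf4 arm members, and reversed Hspe1 (0.14), Cct5 (0.012) and Edem1 (-0.32). Adjusted p alone gave 8 members lower, beside 3077 of 9837 genes. A pseudocount of 0.1 gave a sensor median of 2.09, and a mean of at least 5 FPKM an Atf4 arm median of 1.13. The causes were not tested.

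Without the 2 libraries farthest from the median the correlation of Hspa1a with Dnajb1 became -0.30, of Asns with Hspa5 -0.050 and of Hspa1a with Hspa5 0.46; the last was 0.66 within groups, no longer past the threshold. Libraries with the same number deviated with correlations of -0.16 to -0.03 in Resist vs. Naive, so the numbers did not pair them. With the replicate block 624, 2228 and 5888 genes were called, and 2 members in Resist vs. Naive. The tables hold no counts, so what depth limits is unknown.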
